A study of Mus musculus with 17 samples.

Results

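Uteri of Egr1 knockout (KO) mice were compared with uteri of wild-type (WT) mice before estradiol, the estrogen E2, was given. The 4 arrays of the comparison are the 2 labelled KO and the 2 labelled WT at 0 h, out of 17 arrays and 8 groups in all, and every gene tested is described by the difference between these genotypes. The other 13 arrays hold both genotypes at 3, 6 and 24 h after E2, and they were used for the common estimate of spread and to follow the 0 h differences. Total RNA of whole uterus was measured on Illumina MouseWG-6 v2 bead arrays. The sources used here do not give how or in which cells the Egr1 allele was disrupted, the strain and age of the mice, whether they were ovariectomised, or how many animals stand behind an array. Nothing says that the 2 arrays of a group came from separate mice. The p-values therefore measure only how far these arrays differ beside a spread pooled over all 8 groups, and that spread may be technical.

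Egr1 encodes a zinc-finger transcription factor of the immediate-early class, which growth factors, stretch and steroid hormones induce within minutes. In the rodent uterus it is known as a gene that estrogen switches on quickly. Estrogen acts in this organ on the lining epithelium, the stroma beneath it and the muscle wall. A genotype difference at 0 h is one between arrays of uteri to which E2 had not been given. Whether these uteri shared a hormonal state is not given.

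All values are log2 levels that the authors had already normalised between arrays, and a difference is KO minus WT on that scale, so 1 unit is a 2-fold difference relative to the other genes of the array. Each array has a median of 8.20, and values near it are dim. A gene passed the test when its limma p-value, adjusted by Benjamini-Hochberg over 14737 genes, was under 0.05. KO 1, KO 2, WT 1 and WT 2 name the arrays by genotype and replicate number, and "lost without" an array means that the gene no longer passed when that array was left out of the fit.

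Neither pair of arrays was uniform, and the arrays did not separate cleanly by genotype. Over all probes KO 1 correlated with WT 2 (0.9923) about as closely as with KO 2 (0.9926), while WT 1 and WT 2 correlated at 0.9904. The remaining pairs of a KO and a WT array correlated at 0.9817 to 0.9862. WT 1 had a mean correlation over all probes of 0.974 with the 24 h arrays, against 0.950 to 0.952 for the other 0 h arrays, and its DNA replication genes had a mean level of 9.76, against 9.18 in WT 2 and 9.03 and 9.08 in KO. In KO 2 the 18 macrophage markers tested had a mean level of 10.49, against 9.63 to 9.74 on the other arrays, and the 11 granulocyte markers one of 9.0 against 8.15 to 8.20. The 4 erythroid markers were low in KO 1, at a mean of 10.52 against 11.35 to 11.64. The 11 adipocyte markers were high in both KO arrays, at 11.29 and 11.36 against 10.42 and 10.88 in WT. Smooth muscle markers had means of 11.41 to 11.70, epithelial markers 10.02 to 10.15, and markers of ovary and oviduct, which lie next to the uterus, a median difference of -0.05. Because these are whole organs, fewer cells of a type and less RNA per cell cannot be told apart.

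**Figure D1:**
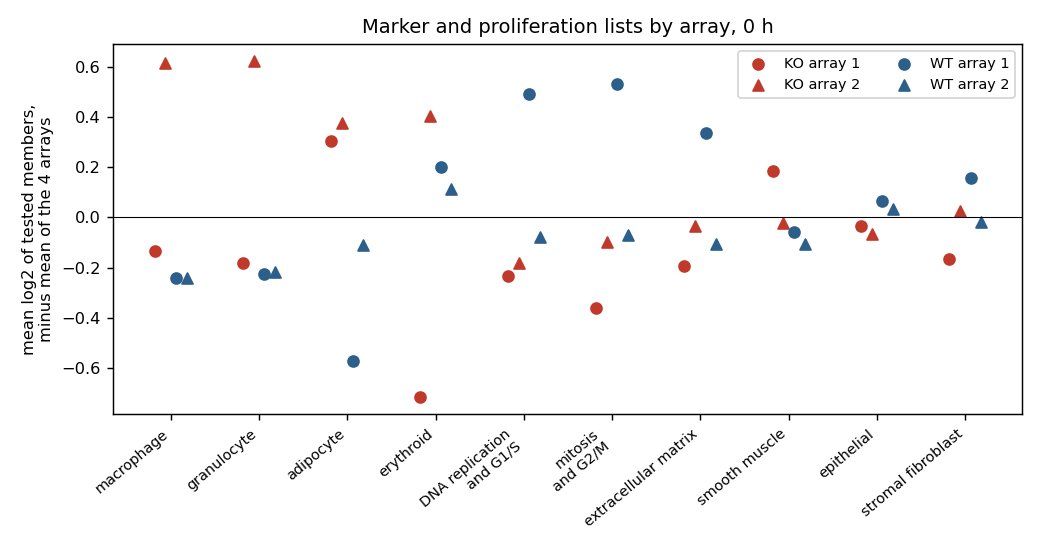
Mean log2 level of selected gene lists on each 0 h array, as the departure from the mean of the 4 arrays. KO 2 stands high for macrophage and granulocyte markers, WT 1 for DNA replication, mitosis and matrix genes, KO 1 low for erythroid markers, and both KO arrays high for adipocyte markers.

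At 0 h 653 genes passed the test, 4.43% of those tested, with 330 higher in KO (2.24%) and 323 lower (2.19%). Most differences were modest: 49 genes (0.332%) passed and differed at least 2-fold, 24 higher and 25 lower. The median difference over all genes was -0.0028 with an SD of 0.206. KO and WT did not overlap for any of the 653 genes, but this also held for 6562 genes (44.5%) of all those tested. The number of genes past the test was 372 without KO 1, 183 without KO 2, 254 without WT 1 and 1720 without WT 2. With each of the 4 arrays left out in turn 126 genes passed every time, 67 higher and 59 lower in KO, and 31 of them differed at least 2-fold. A fit of the 4 arrays at 0 h alone called 8 genes, all of which were among the 653. Weights that limma estimates from the scatter within groups were lowest for the WT pair at 0 h (0.455, against 1.38 for the KO pair). The pooled spread, and the SEs below, may therefore be too small for the WT pair.

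The targeted gene itself was higher in the KO arrays. Egr1 read 13.48 in KO 1 and 13.63 in KO 2, against 12.24 in WT 1 and 12.51 in WT 2. Both KO values lay above both WT values, by 1.18 ± 0.18 (SE; adjusted p = 3.02e-03) on average, and the gene passed with any of the 4 arrays left out. In the fit of the 4 arrays alone its adjusted p was 0.0649. The sources used here do not place its single probe relative to the disruption, so the level does not check the labels and the directions below are between arrays labelled KO and arrays labelled WT.

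Genes close to Egr1 on its chromosome had a share of calls near that of all genes. Of the 50 tested genes on each side, 5 passed the test, which is 5% against the 4.43% of all genes, and the median difference of the 100 was -0.02. The 5 were Fhod3 (0.33), Lims2 (0.58) and Brd8 (0.29), higher in KO, and Ammecr1l (-0.47) and Nrep (-0.90), lower in KO. Nrep was lost without KO 2, Ammecr1l without KO 1, KO 2 or WT 2, and the other 3 without KO 1, KO 2 or WT 1, at adjusted p-values of 0.0636 to 0.337. A further probe of Ammecr1l (0.07) and one of Brd8 (-0.02) had the opposite sign. The nearest neighbours Kdm3b, a histone demethylase gene, and Etf1, a translation release factor gene, differed by -0.06 and -0.07. Mzb1 had the largest difference among the 100 at 1.24, but did not pass (adjusted p = 0.080). It read 8.84 in KO 1 and 10.72 in KO 2, against 8.46 in WT 1 and 8.61 in WT 2.

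**Figure D2:**
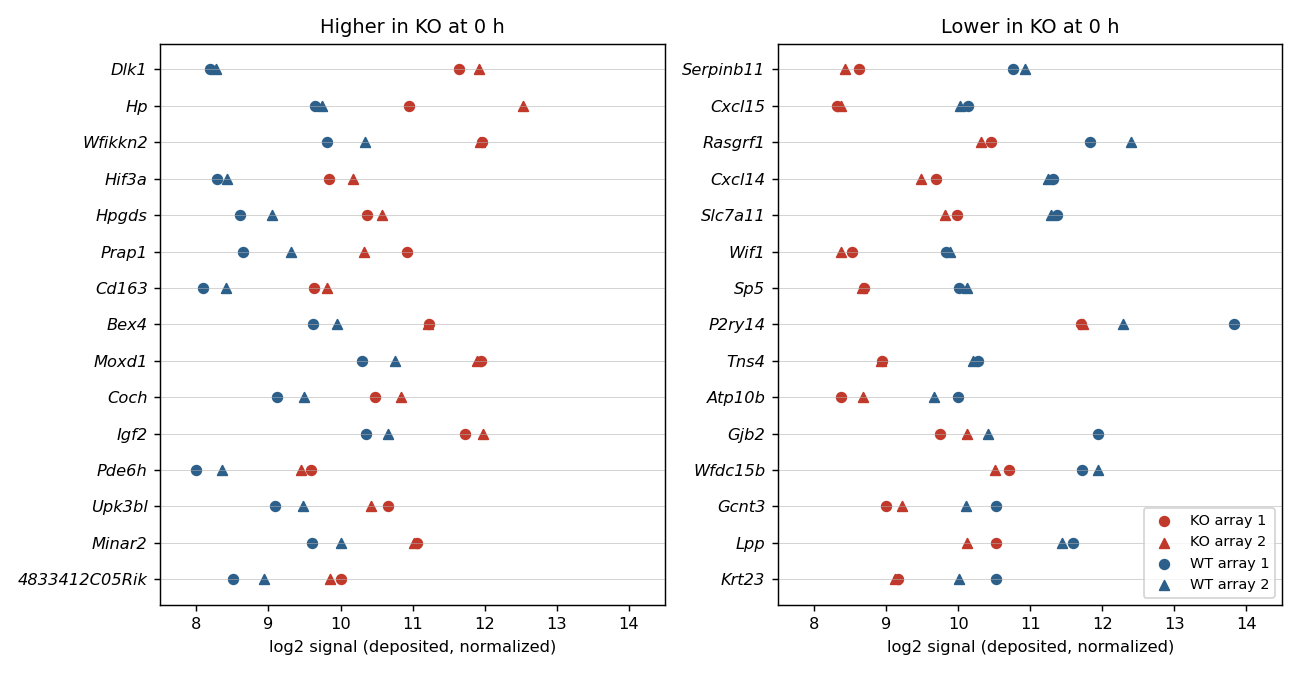
Log2 signal of the 15 genes with the largest positive and the 15 with the largest negative difference on each of the 4 arrays at 0 h. Red points are KO and blue points WT, circles array 1 and triangles array 2, and Dlk1 and Serpinb11 show the widest gaps, with no overlap between genotypes.

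The largest difference belonged to a growth-regulating imprinted gene. Dlk1 encodes a membrane protein with EGF-like repeats that restrains fat cell differentiation, and it is expressed from the paternal allele. Its level was 11.64 in KO 1 and 11.92 in KO 2, against 8.19 in WT 1 and 8.27 in WT 2. The WT values lay at the array median while the KO values were far above it, a difference of 3.55 ± 0.46 (adjusted p = 1.10e-03), or 11.7-fold. A further Dlk1 probe differed by 1.25. Igf2, the paternally expressed insulin-like growth factor, read 11.73 and 11.98 in KO against 10.36 and 10.65 in WT, a difference of 1.35 ± 0.18 (adjusted p = 1.22e-03). Rasgrf1, a paternally expressed exchange factor for Ras, went the other way, with 10.46 and 10.32 in KO and 11.83 and 12.40 in WT, a difference of -1.73 ± 0.26 (adjusted p = 2.73e-03). Its 3 other probes ranged from -1.62 to -0.03. The maternally expressed Igf2r, whose protein removes IGF2 from the cell surface, differed by 0.28 and was lost without KO 1, KO 2 or WT 1 (adjusted p = 0.145 to 0.274).

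Of 21 imprinted genes tested, Dlk1, Igf2 and Igf2r were higher and Rasgrf1 lower (19% called against 4.43% of all genes), and the median was 0.01. All gene and marker lists here were chosen with earlier results of these data known. This share and those of the lists below therefore only describe the lists. Meg3 and Dio3, the neighbours of Dlk1 in its imprinted cluster, differed by -0.10 and 0.00, and neither passed. Among 14 IGF pathway genes the binding protein genes divided: Igfbp3 was higher by 0.85 (lost without KO 1, KO 2 or WT 1, at 0.11 to 0.223), and Igfbp4 was lower. Igfbp4 read 12.84 and 12.99 in KO against 13.64 and 13.55 in WT, a difference of -0.68, and passed with any of the 4 arrays left out. Igf1, a local mediator of estrogen in the uterus, read 11.07 and 11.11 in KO but 12.13 in WT 1 and 10.92 in WT 2, so the groups overlapped. Of the 14 IGF pathway genes 28.6% were called, Igf2 and Igf2r included, against 4.43% of all genes.

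Higher in KO were also several secreted proteins and enzymes. Hpgds, the synthase that makes prostaglandin D2, read 10.37 and 10.58 in KO against 8.60 and 9.05 in WT. This was a difference of 1.65 ± 0.13 (adjusted p = 2.17e-05), and the other Hpgds probe differed by 1.49. Prap1, a proline-rich secreted protein of uterine epithelium, read 10.93 and 10.32 against 8.65 and 9.31, a difference of 1.65 ± 0.25 (adjusted p = 2.86e-03). Coch, an extracellular protein best known from the inner ear, read 10.48 and 10.84 against 9.12 and 9.49, a difference of 1.36. Moxd1, which encodes a monooxygenase related to dopamine beta-hydroxylase, differed by 1.39, and its other probe by 1.18. Each of these 4 genes passed with any of the 4 arrays left out.

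Prap1 and Coch were measured by 1 kept probe each. Among the remaining large positive differences 3 genes had probes that disagreed. Wfikkn2, a secreted binding protein of myostatin and GDF11, read 11.96 and 11.94 in KO against 9.81 and 10.34 in WT, a difference of 1.88, but its other probe differed by 0.14. Hif3a, a hypoxia-inducible factor subunit, differed by 1.66 on 1 probe and by -0.06 and 0.07 on the others. Bex4 differed by 1.43 on its brightest probe and by 0.07 and 1.11 on the others. Which probe reports the transcript of the uterus was not tested. Pde6h (1.34), the inhibitory subunit gene of the cone phosphodiesterase, Upk3bl (1.25), a uroplakin-like gene, Minar2 (1.24) and 4833412C05Rik (1.21) were measured by 1 kept probe each. All 7 passed with any of the 4 arrays left out.

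A pair of genes of haemoglobin clearance, Hp and Cd163, was higher as well, and depended on which arrays were used. Hp encodes haptoglobin, which binds free haemoglobin, and it read 10.95 in KO 1, 12.54 in KO 2, 9.64 in WT 1 and 9.74 in WT 2, a difference of 2.05 (adjusted p = 0.0142). Without KO 2 the difference was 1.26 (adjusted p = 0.136) and without WT 1 it was 2.00 (0.0839). Cd163, the macrophage receptor that takes up the haptoglobin complex, read 9.63 and 9.81 against 8.09 and 8.41, a difference of 1.47 (adjusted p = 0.0110). Its adjusted p was 0.0932 without KO 2 and 0.0899 without WT 1. Unlike Hp, Cd163 was about as high in KO 1 as in KO 2.

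Among the genes lower in KO, the protease inhibitor gene Serpinb11 had the largest difference, and Cxcl15, Rasgrf1 (above) and Cxcl14 followed. Serpinb11 read 8.63 and 8.43 in KO against 10.76 and 10.93 in WT, a difference of -2.32 ± 0.37 (adjusted p = 3.61e-03), or 4.98-fold. Cxcl15, a mouse chemokine known from lung and other mucosal epithelia, read 8.31 and 8.37 against 10.14 and 10.02, a difference of -1.73 ± 0.25 (adjusted p = 1.90e-03). Its KO values were close to the array median. Cxcl14, a chemokine of epithelia that attracts myeloid cells, read 9.70 and 9.49 against 11.31 and 11.24. Its difference of -1.68 ± 0.11 had the smallest adjusted p of all genes tested (1.36e-05), and its other probe differed by -1.05. These 3 genes also passed in the fit of the 4 arrays alone, with adjusted p-values of 0.016, 0.016 and 0.0198.

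Further genes lower in KO were Slc7a11, the cystine transporter that feeds glutathione synthesis (-1.43, although its 4 other probes lay between -0.22 and -0.04), Atp10b, a lipid flippase gene (-1.30), and Krt23, an acidic keratin gene (-1.12). They passed with any of the 4 arrays left out. Tns4, a focal adhesion protein gene (-1.30), was lost without KO 2 at an adjusted p of 0.0527. Gcnt3, which branches mucin sugars (-1.20), was lost without KO 1 or WT 1. Wfdc15b (-1.22) was lost without KO 2 or WT 1, and so was Lpp (-1.20), a focal adhesion gene whose other probes lay between -0.08 and 0.12. P2ry14, a receptor for UDP-sugars, read 11.70 and 11.73 in KO but 13.83 in WT 1 and 12.29 in WT 2. Its difference of -1.35 was -0.58 without WT 1 (adjusted p = 0.255), and it was lost without KO 1 or KO 2 as well. Other P2ry14 probes lay between -1.39 and -0.28, and those of Gjb2 between -0.87 and -0.05. Gjb2, the connexin 26 gene, had the same shape, with 11.94 in WT 1 and 10.41 in WT 2, and its difference of -1.24 was -0.48 without WT 1 (adjusted p = 0.194). It was also lost without either KO array. The adjusted p-values of these 6 genes without those arrays ran from 0.0511 to 0.255.

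Wnt signalling genes were found on both sides. Wnt ligands bind frizzled receptors and stabilise beta-catenin, which acts with TCF/LEF factors, and secreted proteins such as WIF1, SFRP1 and NOTUM dampen the signal. Wif1 read 8.52 and 8.38 in KO against 9.83 and 9.89 in WT, a difference of -1.41 ± 0.19 (adjusted p = 1.40e-03). Sp5, a zinc-finger factor gene that Wnt signals induce in many tissues, read 8.70 and 8.67 against 10.01 and 10.12, a difference of -1.38 ± 0.15 (adjusted p = 4.45e-04). Both were low in each KO array, passed with any of the 4 arrays left out and passed in the fit of the 4 arrays alone (adjusted p = 0.0198 each).

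The 33 Wnt pathway genes tested had a median difference of -0.04, with 3 higher and 4 lower, which is 21.2% called against 4.43% of all genes. Because this list was chosen with earlier results of these data known, its share is no support for a Wnt difference. Lower with Wif1 were Fzd2 (-0.50), a Wnt receptor, lost without KO 2, and Notum (-0.55), an enzyme that inactivates Wnt ligands, lost without KO 2, WT 1 or WT 2. Wnt7a (-0.51), a ligand made by uterine epithelium, was lower too, and was lost without KO 1, KO 2 or WT 2. Higher were Rspo3 (0.54), which amplifies Wnt signals and was lost without KO 1, KO 2 or WT 1, and Sfrp1 (0.68), which binds Wnt ligands and was lost without KO 2, WT 1 or WT 2. The third was Nkd1 (0.32, adjusted p = 0.0413), a feedback inhibitor gene that was lost without KO 1, KO 2 or WT 1. For these 6 genes the adjusted p-values without the arrays named ran from 0.0542 to 0.25. Other probes of these genes differed by less: 0.06 for Sfrp1, 0.01 for Nkd1, 0.20 for Rspo3, and between -0.21 and 0.02 for Notum. Axin2, a widely used readout of the pathway, read 11.64 and 11.29 in KO against 11.64 and 12.01 in WT, and its difference of -0.36 did not pass (adjusted p = 0.170).

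The stretch around the gene start is shown for 4 genes that the results turn on: Dlk1 and Cxcl14, with the largest difference and the smallest adjusted p, and Wif1 and Sp5, the Wnt genes. Each runs from 250 bases before to 50 after the start in RefSeq (GRCm38.p6), 5′ to 3′ on the gene's strand, with motif matches in capitals. They lie at chr12:109452573-109452872 (+) for Dlk1, chr13:56296502-56296801 (-) for Cxcl14, chr10:121033754-121034053 (+) for Wif1 and chr2:70474673-70474972 (+) for Sp5.
Dlk1: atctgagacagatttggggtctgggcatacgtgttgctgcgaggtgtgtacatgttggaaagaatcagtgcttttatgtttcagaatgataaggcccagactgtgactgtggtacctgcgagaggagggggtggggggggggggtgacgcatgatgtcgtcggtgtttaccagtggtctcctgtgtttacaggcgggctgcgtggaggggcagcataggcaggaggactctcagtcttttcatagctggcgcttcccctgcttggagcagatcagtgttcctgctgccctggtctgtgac
Cxcl14: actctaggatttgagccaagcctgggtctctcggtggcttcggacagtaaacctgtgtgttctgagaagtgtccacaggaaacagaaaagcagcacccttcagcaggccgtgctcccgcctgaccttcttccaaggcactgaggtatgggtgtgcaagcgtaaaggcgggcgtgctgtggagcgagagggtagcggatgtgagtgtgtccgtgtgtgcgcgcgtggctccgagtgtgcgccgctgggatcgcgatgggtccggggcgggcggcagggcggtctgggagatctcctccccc
Wif1: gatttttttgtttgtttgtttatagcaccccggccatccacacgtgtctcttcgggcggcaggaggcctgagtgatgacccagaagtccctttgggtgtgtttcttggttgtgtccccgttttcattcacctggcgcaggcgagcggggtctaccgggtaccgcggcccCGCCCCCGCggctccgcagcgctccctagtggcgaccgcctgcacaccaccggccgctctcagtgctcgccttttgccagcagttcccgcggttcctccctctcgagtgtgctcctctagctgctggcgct
Sp5: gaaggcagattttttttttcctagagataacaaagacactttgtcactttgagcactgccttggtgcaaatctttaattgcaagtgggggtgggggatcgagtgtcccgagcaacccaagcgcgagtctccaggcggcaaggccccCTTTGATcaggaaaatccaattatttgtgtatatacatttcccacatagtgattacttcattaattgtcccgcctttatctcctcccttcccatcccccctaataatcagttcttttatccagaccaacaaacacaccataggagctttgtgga
The motif of the EGR family, searched as GCGTGGGCG or GCGGGGGCG on both strands, matched once in Wif1, on the opposite strand at position -81 relative to the gene start. Sp5 held 1 match at position -104 to the TCF/LEF motif ATCAAAG, also on the opposite strand, a motif chosen after the values were seen. No match to either motif stood in these windows of Dlk1 or Cxcl14.

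EGR matches were about as frequent in the genes that differed as in all genes. The EGR motif occurred in 785 of 11820 promoters of the tested genes (6.64%), in 18 of 273 of the genes higher in KO (6.59%) and in 16 of 249 of those lower (6.43%). Among the genes named by rule, Fkbp5, Igf2r, Mmp14, Moxd1, Wif1 and Wnt7a held a match. For TCF/LEF the shares were 3.38% of all, 3.66% of the higher and 4.42% of the lower genes.

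Few immediate-early genes differed. Of 35 tested, 2 were higher and 0 lower (5.71% called, near the 4.43% of all genes), with a median difference of 0.18, and 0 passed with limma without KO 2 or without WT 1. Ccn2, a matrix-associated growth regulator gene, read 12.88 and 12.95 against 11.63 and 12.36, a difference of 0.92 that was lost without KO 2 or WT 1. Its relative Ccn1 differed by 0.44 (0.04 and 0.09 on its other probes) and was lost without any 1 of the 4 arrays. The adjusted p-values of both without those arrays ran from 0.0652 to 0.214. Fos (0.29), Jun (0.34) and Atf3 (0.39) were higher in both KO arrays than in both WT arrays, but none passed. Egr2 and Egr3, the closest relatives of Egr1, differed by -0.05 and 0.14, and both groups overlapped for each.

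Among 19 genes of EGR1 feedback and reported EGR1 targets, 2 were higher and 1 lower (15.8% called against 4.43% of all genes), with a median of 0.06. Icam1, an adhesion molecule gene, read 9.83 and 10.06 against 9.44 and 9.58, a difference of 0.44 that was lost without KO 2. Timp3, an inhibitor of matrix proteases, differed by 0.60 (0.04 and 0.22 on its other probes) and was lost without KO 1, KO 2 or WT 1. Ccnd1, the G1 cyclin, read 12.12 and 12.02 against 12.57 and 12.58, a difference of -0.51, lost without KO 2 or WT 1. Adjusted p-values without those arrays were 0.0552 to 0.194 for the 3 genes. Nab2, a corepressor that EGR1 induces and that in turn restrains it, differed by -0.14 and did not pass.

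Genes of the estrogen and progesterone response were mixed. The shares called were 16.7% of early estrogen, 6.9% of late secretory and 25% of progesterone-response genes, against 4.43% of all genes. Early estrogen-response genes had 2 higher and 2 lower of 24 (median 0.05), but 2 higher and 8 lower without WT 2. Slc2a1, the glucose transporter gene, read 11.11 and 11.00 against 10.42 and 10.49, a difference of 0.60 that passed with any of the 4 arrays left out. Errfi1, an inhibitor of EGF receptor signalling, was higher by 0.62 but lost without KO 1, KO 2 or WT 1. The 29 late secretory genes had 1 higher, Prap1, and 1 lower, Serpina1e (-0.76; lost without KO 1, KO 2 or WT 1), with a median of 0.08. Of 16 progesterone-response genes, Ihh, the epithelial hedgehog ligand of the uterus, was lower (-0.49; lost without KO 1, KO 2 or WT 2). The hedgehog receptor and target gene Ptch1 read 9.75 and 9.67 against 10.32 and 11.02 (-0.96; lost without KO 2). Fkbp5, a steroid receptor chaperone gene, was higher (0.67; lost without KO 2 or WT 1). The other Ihh probe differed by -0.01. The genes lost in this paragraph had adjusted p-values of 0.0533 to 0.171 without the arrays named. Of 20 steroid and nuclear receptors and coregulators 0 passed limma's test (median -0.02), and 3 had an unadjusted p under 0.05. Esr1, the estrogen receptor gene, read 10.85 and 10.54 in KO against 11.37 and 11.24 in WT, a difference of -0.61 (adjusted p = 0.068), and Pgr, the progesterone receptor gene, differed by -0.44 (adjusted p = 0.098).

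Tissue kallikreins, a clustered family of serine proteases, had 4 of 17 members higher in KO and 0 lower, which is 23.5%, against 2.24% of all genes higher in KO. As the list was chosen with earlier results of these data known, this share only describes it. The count was 2 without KO 1 or KO 2 and 1 without WT 1. Klk1 read 9.58 and 9.48 against 8.30 and 8.81, a difference of 0.98 that passed with any of the 4 arrays left out. Klk8 read 10.77 and 10.60 against 9.61 and 9.97, a difference of 0.89, lost without WT 1. Klk1b26 (0.65) and Klk11 (0.45) were lost without KO 1, KO 2 or WT 1. Their adjusted p-values without those arrays, and that of Klk8, were 0.059 to 0.279. The family's coding sequences are closely related, so signal of near-identical members such as Klk1b26, whose other probe differed by 0.09, is uncertain. The family's median was 0.12.

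Matrix proteases and their inhibitors had 4 higher and 3 lower of 22 (31.8% called against 4.43% of all genes). Their median was -0.01, and fewer passed without KO 2. The inhibitor gene Timp3, described above, had the largest positive difference of the list (0.60). Mmp14, the membrane-anchored collagenase gene, read 12.68 and 12.47 against 13.09 and 13.18, a difference of -0.56, lost without KO 2. Plat, the tissue plasminogen activator gene, read 12.37 and 12.34 against 13.28 and 13.57, and its difference of -1.07 (-0.18 on its other probe) was lost without any 1 of the 4 arrays. Mmp23 was higher by 0.55 and passed with any array left out. Matrix genes themselves had 1 higher and 2 lower of 29 (10.3% called), and a median of -0.20 that became -0.01 without WT 1. The small leucine-rich proteoglycans went apart, with Ogn higher by 0.67 and Lum lower (-0.84), and both were lost without KO 1, KO 2 or WT 1. Col18a1 (-0.52, and -0.26 on its other probe), the source of endostatin, was lost without any 1 of the 4 arrays. The adjusted p-values of the 5 genes without the arrays named ran from 0.0537 to 0.2. WT 1 had the highest mean level of matrix genes, 11.57 against 11.04 to 11.20. Its part in these differences was not tested. The list of matrix proteases and inhibitors, too, was chosen with earlier results of these data known, so its share of calls only describes it.

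Cell cycle genes had negative medians that rested in part on WT 1. Of the DNA replication genes 3.03% were called, against 4.43% of all genes. At an unadjusted limma p under 0.05, 20 of these genes were lower and 0 higher. Of 33 DNA replication genes 1 was lower, Rfc5 (-0.39, with 0.00 on its other probes; lost without KO 1, KO 2 or WT 1, at 0.129 to 0.344), and the list's median was -0.39. Without WT 1 the median was -0.15, and without WT 2 it was -0.58 with 23 genes lower. The 26 mitosis genes had a median of -0.47, and 0 passed with limma (14 at an unadjusted p under 0.05, all lower), against -0.13 without WT 1 and -0.73 with 13 lower without WT 2. The replication mean of WT 2, 9.18, was closer to the KO means of 9.03 and 9.08 than to the 9.76 of WT 1.

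Macrophage, granulocyte and complement lists depended on KO 2. The 18 macrophage markers had a median of 0.48 and 1 gene higher, Cd163. Without KO 1 the median was 0.86 with 7 higher, and without KO 2 it was 0.05 with 0 higher. Csf1r, the receptor that maintains macrophages, read 9.20 in KO 1, 9.90 in KO 2, 8.92 in WT 1 and 8.98 in WT 2. The granulocyte gene S100a8 read 8.35, 11.61, 8.50 and 8.24 on the same arrays. For granulocyte markers the median was 0.24, 0 passed with limma (4 at an unadjusted p under 0.05), and the median without KO 2 was 0.03. Of 17 complement genes C1s1, a protease of the classical pathway, was higher (0.65; lost without KO 2 or WT 1, at 0.129 and 0.107). Cfi, a protease that inactivates complement, read 8.77 and 8.79 against 9.69 and 9.30, a difference of -0.71 that passed with any array left out. The complement median of 0.33 was -0.02 without KO 2. Of 42 chemokine and cytokine genes Cxcl14 and Cxcl15 were lower and Cx3cl1 (0.46) higher, the last lost without KO 2 or WT 1 (0.0557 and 0.075). Of 27 interferon-stimulated genes 0 passed with limma (2 at an unadjusted p under 0.05), and of 26 antigen presentation genes 0 passed (6 unadjusted). Over all 14737 genes 2710 had an unadjusted p under 0.05. The shares called were 5.56% of macrophage, 11.8% of complement and 7.14% of chemokine and cytokine genes, against 4.43% of all genes.

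Epithelial markers had 1 higher and 3 lower of 17 (23.5% called against 4.43% of all genes), with a median of -0.13. Cldn4, a tight junction gene, read 9.94 and 10.11 against 9.11 and 9.18, a difference of 0.88 that passed with any array left out. Cdh16, a cadherin of epithelia, read 10.85 and 10.39 against 11.56 and 11.79, a difference of -1.06, lost without KO 2 (0.072). Krt8 (-0.39) was lost without KO 1, KO 2 or WT 1 (0.124 to 0.285). Serpinb11, Cxcl15, Prap1 and Krt23 have their known sites in epithelia, beside mean levels of the epithelial markers of 10.05 and 10.02 in KO and 10.15 and 10.12 in WT. Adipocyte markers had a median of 0.54, with 0 of 11 past limma's test and 6 at an unadjusted p under 0.05, and Dlk1, which is known from fat precursors, was high in the same arrays. Adipoq read 13.16 and 13.26 in KO against 12.08 and 12.81 in WT. Their part in the Dlk1 difference was not tested.

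Smaller groups added single genes. Called were 6.67% of clock genes and 11.1% of skeletal muscle markers, 1 gene in each list, against 4.43% of all genes. Id4, an inhibitor of helix-loop-helix factors, read 10.89 and 10.41 against 9.59 and 9.59, a difference of 1.06 that passed with any array left out, while its other probe differed by 0.32. Id1, Id2 and Id3 differed by 0.05, 0.04 and 0.26, and none passed. Gstm7, a glutathione transferase gene, read 9.37 and 9.05 against 9.91 and 10.46, a difference of -0.97, lost without KO 2 (0.0512). Per1, a clock gene, was higher by 0.61 (lost without KO 1, KO 2 or WT 1, at 0.15 to 0.284), as 1 of 15 clock genes. Tnnt1, a slow skeletal troponin, was higher by 0.91 and passed with any array left out, as 1 of 9 skeletal muscle markers. Cholesterol synthesis (17 genes) and ribosome biogenesis (23 genes) had 0 past limma's test, 1 and 0 at an unadjusted p under 0.05, and medians of -0.09 and -0.01.

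**Figure D3:**
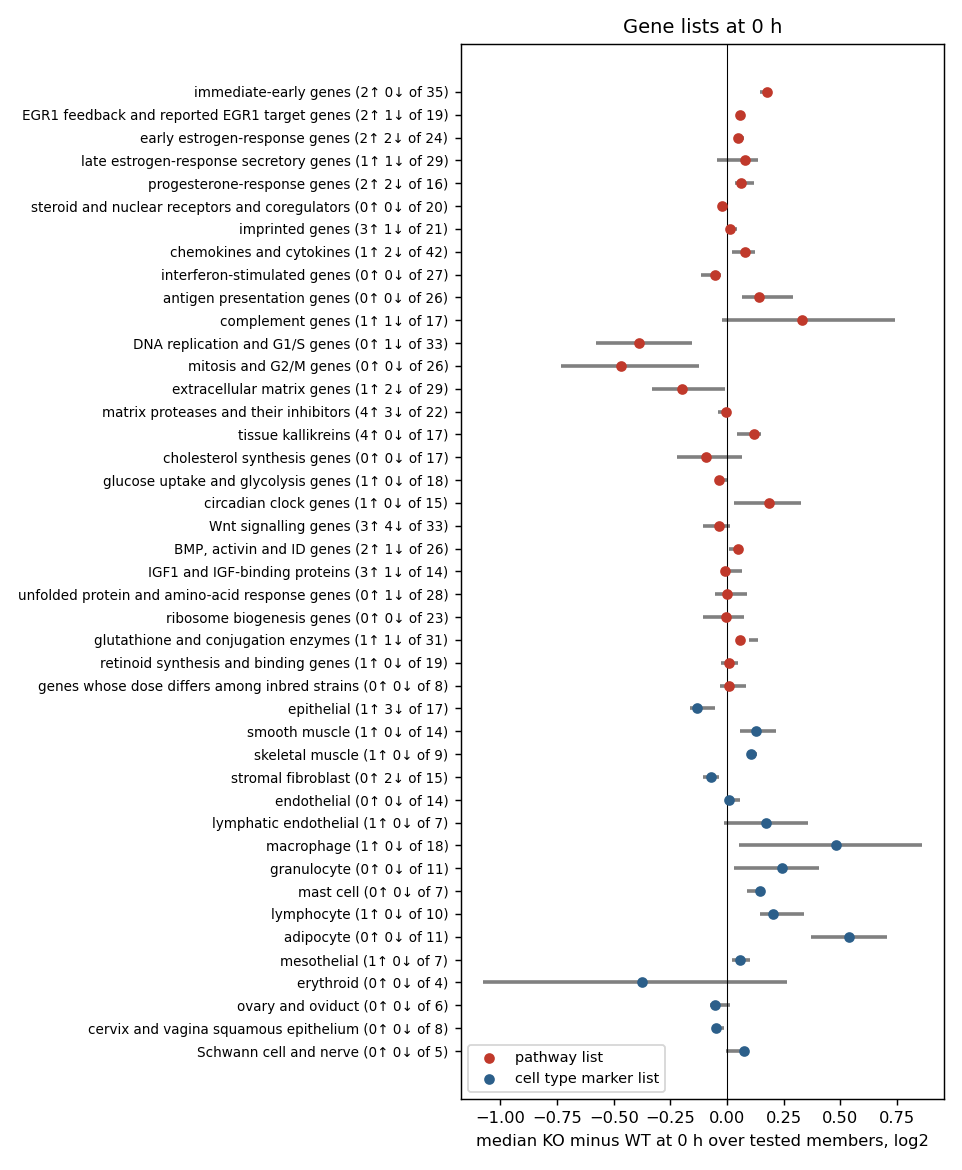
Median KO minus WT difference (log2) at 0 h over the tested members of each list, with the counts of members higher and lower. Dots are medians with all arrays, and grey lines span the medians with each of the 4 arrays left out in turn, which are long for macrophage, complement, erythroid and cell cycle lists.

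Arrays at later times were then read for the same genes. None of them enters a 0 h difference, but all entered the pooled spread behind the 0 h calls. Of the 330 genes higher in KO at 0 h, 74.2% were also higher at 3 h, 76.1% at 6 h and 55.5% at 24 h. For the 323 lower genes the shares were 72.4%, 81.1% and 52.9%. Over all genes tested the share with the same sign was 57.3%, 56.2% and 45.2%. At 24 h the share among all 653 was 54.2%, but 68.9% of the genes called without WT 1 and 38.6% of those called without WT 2. For the 126 genes that passed with each array left out it was 83.3% at 3 h, 82.5% at 6 h and 69.8% at 24 h.

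The later differences were mostly smaller. The median of the higher genes was 0.48 at 0 h and 0.15, 0.12 and 0.03 at 3, 6 and 24 h, and that of the lower genes went from -0.43 to -0.11, -0.11 and -0.03. Genes picked for a large 0 h difference will in part give smaller ones elsewhere. In the same direction 65 of the higher genes passed at 3 h, 6 at 6 h and 35 at 24 h, which is 19.7%, 1.82% and 10.6% of them. KO exceeded WT past the test for 2.16%, 0.271% and 4.08% of all genes at these times. Of the lower genes 51, 11 and 64 passed again (15.8%, 3.41% and 19.8%), against 2.07%, 0.36% and 4.27% of all genes. In the opposite direction 4, 0 and 15 of the higher and 7, 1 and 39 of the lower genes passed. In either direction, KO and WT differed at these times for 4.23%, 0.631% and 8.35% of all genes. The tests at 0 h and at the later times used the same pooled spread of each gene. A gene with a small pooled spread passes more easily at every time, so passing again is not independent of the 0 h calls. How much of the repeated passing comes from this was not tested.

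**Figure D4:**
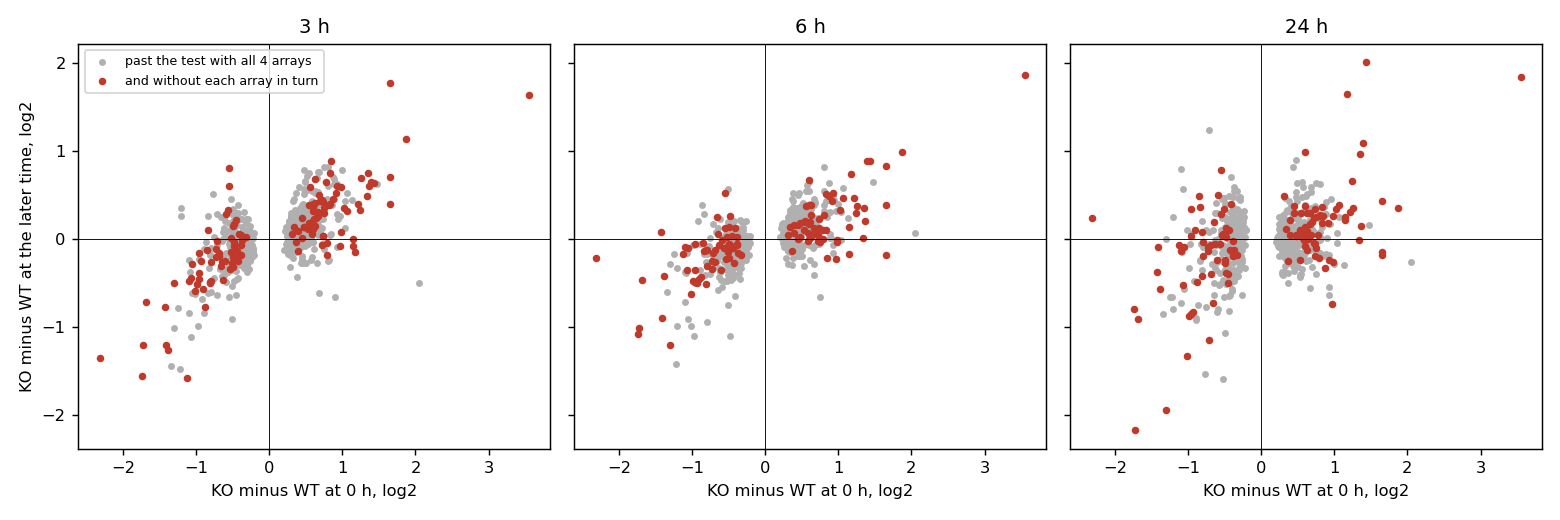
KO minus WT (log2) at 3, 6 and 24 h, vertical, against the same difference at 0 h, horizontal, for the 653 genes past the test at 0 h. Red points are the 126 that also passed with each 0 h array left out, and the cloud has less slope and more scatter at 24 h than at 3 h.

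Only 4 genes passed at 0 h and at all 3 later times in 1 direction. Arg2, the mitochondrial arginase gene, was lower at each (-0.51, -0.91, -0.75 and -0.66 in order of time). Gpc3, a cell-surface proteoglycan of the X chromosome that limits growth, was higher at each (0.58, 0.55, 0.61 and 0.60), and so was Csrp2, a LIM protein gene (0.38, 0.32, 0.52 and 0.43). Ccnd3, a G1 cyclin, was higher too (0.60, 0.39, 0.67 and 0.99), although its other probe differed by 0.01 at 0 h. Of these, Ccnd3 alone passed at 0 h with each array left out in turn. Gpc3 was lost without KO 2 or WT 1, and Arg2 and Csrp2 without KO 1, KO 2 or WT 1, at adjusted p-values of 0.0532 to 0.218. Dlk1 stayed far above WT (1.64, 1.87 and 1.84), but its 6 h difference did not pass (adjusted p = 0.0867).

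A joint test asked whether the KO minus WT difference at 3, 6 and 24 h departed from that at 0 h. It was past the threshold for 1006 genes (6.83%), and for 270 of the 653 (41.3%), of which 204 had smaller differences at all later times. This test uses the same 0 h arrays that chose the genes. Hpgds differed by 1.65 at 0 h, 0.71 at 3 h, -0.18 at 6 h and -0.19 at 24 h (joint adjusted p = 3.68e-04). Slc25a33, a mitochondrial carrier of pyrimidine nucleotides, read 10.80 and 10.62 in KO against 9.54 and 9.58 in WT at 0 h, a difference of 1.15, and then -0.08, -0.18 and 0.25 (4.47e-04). Sybu, a microtubule transport linker gene, differed by 0.99 and then by 0.08, -0.01 and 0.26 (9.22e-04). For Slc25a33 and Sybu no later difference passed the test, and for Hpgds that at 3 h did.

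Others turned or persisted. Srek1, a splicing regulator gene, was lower at 0 h (-0.55) and higher at 3, 6 and 24 h (0.80, 0.53 and 0.78), each past the test, but its other probes at 0 h lay between -0.05 and 0.07. Sned1, a matrix protein gene, differed by -0.55 and then by 0.60, 0.13 and 0.28, and its other probes lay between -0.03 and 0.01 at 0 h. Egr1 itself went from 1.18 to -0.15, 0.73 and 1.65. Cxcl14 remained lower at 3 h (-0.72) and 24 h (-0.91), both past the test, as did Rasgrf1 (-1.20 and -2.17). Krt23 differed by -1.58 at 3 h and by -0.06 at 24 h. Bex4 and Atp10b had their largest differences at 24 h, of 2.01 and -1.94.

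**Figure D5:**
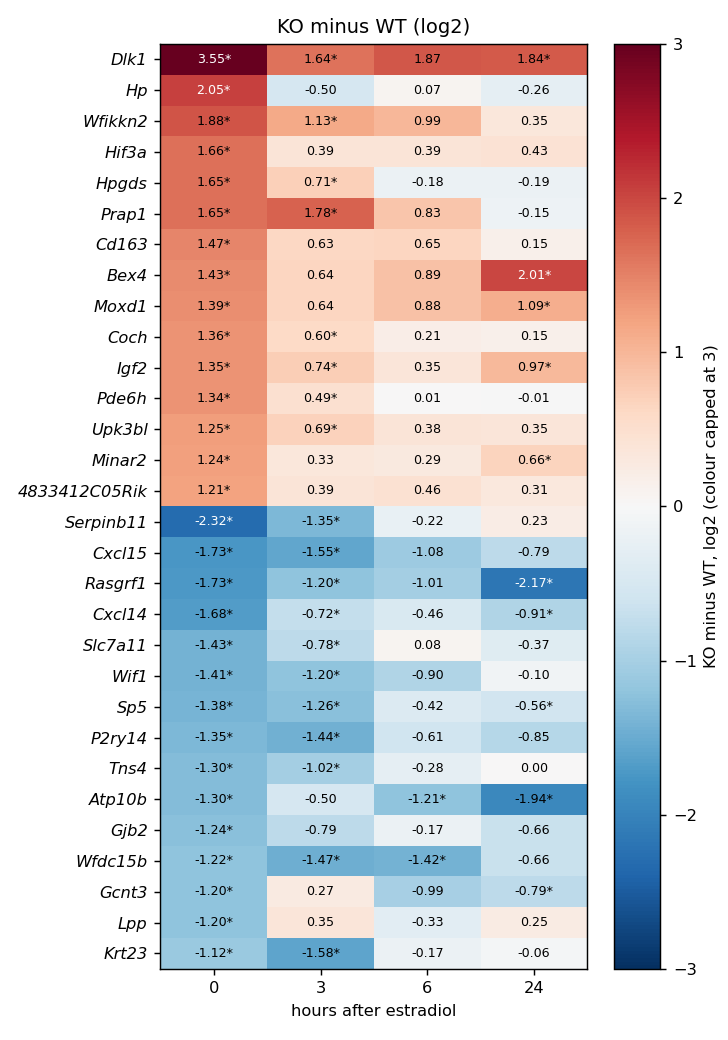
KO minus WT difference (log2, in colour and as a number) of the 15 genes with the largest positive and the 15 with the largest negative difference at 0 h, by hours after E2. Asterisks mark differences past the test, and Dlk1, Rasgrf1 and Cxcl14 keep their sign throughout while Hp, Hpgds and Lpp do not.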

How the data were processed

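Biotin-labelled total RNA of uterus was read on Illumina MouseWG-6 v2 arrays, per the labels. The deposited table is on a log2 scale and had been quantile normalised by the authors, as its values show: all 17 arrays share 1 distribution with a median of 8.20 and a range of 7.39 to 15.94. BeadStudio is named in the submitters' processing notes, while the sources used here do not give background correction, log offset or genome build, so dim differences may be compressed. No depth applies to arrays, and their number limits the precision.

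Of 45281 probes, 34885 carried 1 gene symbol, 18 several and 10378 were not listed. Of the listed probes 34807 matched RefSeq genes (GRCm38.p6) by Entrez number, and 0 symbols changed. Kept were probes that exceeded the median in 2 or more of 17 arrays, and the brightest probe stood for its gene, which gave 14737 genes. A mean for each of 8 groups was fitted with limma 3.58.1 in R 4.3.3 (lmFit and eBayes, 9 residual and 4.56 prior degrees of freedom), two-sided, with Benjamini-Hochberg adjustment over all genes and a threshold of 0.05. The fit was also run on simulated data, with independent noise and 1 SD per gene shared by all groups. Because scatter here differed between groups, that run cannot show how reliable the 0 h calls are.

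The rule named Egr1, the 15 largest positive and 15 largest negative differences past the test without overlap, up to 4 members of each list, and 3 genes in each direction whose difference changed most after 0 h. Genes outside it (Egr2, Esr1, Axin2, Nkd1, Adipoq, Brd8 and the like) were named after their values were seen. The members and lists (27 pathway and 16 marker lists, 753 genes tested) were chosen with earlier results of these data known.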

Additional observations from a re-analysis of the deposited data

Results flagged for a closer look

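Leaving aside genes named only through a list, the KO minus WT difference itself changed after 0 h for 26 named genes (joint moderated F-test). For the genes higher in KO at 0 h the adjusted p-values were 0.00479 for Egr1, 0.0448 for Hp, 0.0466 for Wfikkn2, 0.0132 for Hif3a, 3.68e-04 for Hpgds, 0.0147 for Prap1, 0.0221 for Bex4, 0.00813 for Coch, 0.00216 for Pde6h, 0.0478 for Upk3bl, 0.00942 for Minar2 and 0.0413 for 4833412C05Rik. Bex4 and Egr1 had their largest differences at 24 h, and the other 10 had theirs at 0 h or 3 h. Slc25a33 (4.47e-04) and Sybu (9.22e-04) were above WT at 0 h and passed at no later time.

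For the genes lower in KO at 0 h the adjusted p-values were 0.0287 for Serpinb11, 0.00369 for Cxcl14, 0.0118 for Slc7a11, 0.0308 for Wif1, 0.0254 for Sp5, 0.0430 for Atp10b, 0.0258 for Gcnt3, 0.0402 for Lpp, 0.00278 for Krt23 and 6.50e-04 for Homer2. Srek1 (5.87e-05) and Sned1 (2.91e-04) were lower in KO at 0 h and higher at 3 h. Over all genes the change passed for 270 of the 653 genes called at 0 h, and for 29 of the 58 list members named. Genes were selected on their 0 h difference, and the same 0 h arrays enter this test.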

How the results depend on the processing

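The difference of none of the 85 genes named changed sign in any alternative. With 1 array left out this was fixed in advance, because KO and WT did not overlap for any gene past the test. The fit of every probe by itself followed the same probe of a gene, so it says nothing of the other probes. Medians of lists did change sign. Complement went from 0.33 to -0.02 and late secretory genes from 0.08 to -0.05 without KO 2, and erythroid markers from -0.38 to 0.27 without KO 1. Against 653 genes past the test, the fit of the 4 arrays at 0 h alone called 8 and array weights called 367. Leaving out 1 array gave 183 (without KO 2) to 1720 (without WT 2), with 372 without KO 1 and 254 without WT 1. Of the 653, 126 passed with each array left out. Without a filter on low values 609 genes passed, with a filter at the 75th percentile 677, with the mean of a gene's probes 575, with every probe by itself 830, with an intensity trend 594 and with arrays centred on their median 659. The share of called genes with the same sign was 73.4% at 3 h, 78.6% at 6 h and 54.2% at 24 h; array weights gave 77.1% at 3 h and 61.6% at 24 h. Leaving out 1 array gave 71.8% to 80.9%, 69.8% to 84.3% and 38.6% to 68.9% at these times. The joint change passed for 1006 genes, for 1798 with array weights and for 540 (without KO 2) to 2220 (without WT 2) with 1 array left out. Of 85 genes named, 7 passed in every alternative and 34 in every one but the fit of the 4 arrays alone.

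Pairing by replicate number did not show in the values: the differences between replicates 1 and 2 correlated between KO and WT at -0.195, 0.0015, -0.108 and -0.137 at 0, 3, 6 and 24 h. With 1 such pair of differences at each time, this does not settle whether arrays shared a batch, numbered alike or crossed. The KO 3 h arrays carry the letters B and C in 1 label and the numbers 1 and 2 in another, and the 3 h value and the block rest on the numbers. With a replicate block 642 genes passed, 553 of them among the 653. With the numbers crossed at 0 h, an alternative chosen after the data were seen, 582 passed. Signal near the array median limits what dim probes can show, and 2 arrays a group limit the rest. The causes of these changes were not tested.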

Other observations

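Several further genes passed at 0 h with each of the 4 arrays left out in turn, and were chosen after their values were seen. Cyp1b1, an enzyme that hydroxylates estradiol, read 9.84 and 10.26 in KO against 8.68 and 9.12 in WT, a difference of 1.15, and differed by -0.0046, 0.14 and 0.21 at 3, 6 and 24 h. Ednrb, an endothelin receptor gene, was higher in KO by 0.79, Fgf7, a stromal growth factor that acts on epithelium, by 0.45, and Slit2, a guidance ligand gene, by 0.66 (0.16 to 0.27 on its other probes). Penk, the enkephalin precursor gene, was higher by 0.47 and Tspo, a mitochondrial cholesterol-binding protein gene, by 0.54 (0.15 and 0.24 on its other probes). Lower in KO were Snai1, a repressor of epithelial cadherin (-0.84, but -0.01 on its other probe), and the membrane peptidase genes Mme (-0.73, and -0.21 on its other probe) and Dpp4 (-0.46).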
